A study of Mus musculus with 18 samples.

Results

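Cells that carried the Jmjd1c guide e20.1 were compared with cells that carried a control guide against Renilla, a luciferase gene with no copy in the mouse. The 6 libraries, 3 per guide, were taken by their labels from the 18 libraries of the series, and 11550 of 23899 genes entered the test, those that averaged 1 FPKM or more across all 18. FPKM are fragments per kilobase of transcript, scaled to the mapped fragments of the library. Both groups are cells of a primary mouse leukaemia that express Cas9 and the MLL-AF9 fusion, grown in RPMI with serum and 10 ng/ml of mouse interleukin-3, and poly(A) RNA was sequenced in bulk. The series holds 3 further Jmjd1c guides (e12.3, e12.4 and e21.1) and a mock group, each with 3 libraries, and its guides were aimed at the jumonji and zinc finger domains of JMJD1C. The labels do not say which domain e20.1 cuts, how long after guide delivery the cells were taken, whether the cells are clones, or whether replicates were grown as separate cultures. The p-values therefore measure only the spread between these libraries. In bulk RNA, more cells of a kind and more RNA per cell cannot be told apart.

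JMJD1C is a nuclear protein of the KDM3 family, whose jumonji domain is related to enzymes that remove methyl groups from lysine 9 of histone H3. MLL-AF9 joins the DNA-binding part of MLL (KMT2A) to AF9 (MLLT3), holds open genes such as Hoxa9 and Meis1, and keeps myeloid progenitors from maturing into monocytes and neutrophils. Interleukin-3 binds a receptor made of a private alpha chain and the beta chain encoded by Csf2rb, and signals through JAK2 to STAT5 and through RAS to the MAP kinases.

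With e20.1, limma called 12 of 19 tested monocyte and macrophage genes and 11 of 15 paired immunoglobulin-like receptors higher than with Renilla, and 0 of either list lower. Of the interleukin-3 and STAT5 genes 9 of 23 rose, and of the immediate-early and RAS-MAPK response genes 8 of 22, again with 0 called lower. Of 11 genes of primary granules, which promyelocytes fill, 3 fell, among them Mpo (myeloperoxidase), and 1 rose, but 0 were called lower without a pair of libraries that stood apart from the rest. Over all tested genes, limma called 656 at an adjusted p under 0.05. Of these, 533 were higher (4.61% of the tested genes) and the rest lower (1.06%), with differences of 2-fold or more in 202 that rose and 7 that fell. An unadjusted p under 0.05 was reached by 2076 genes, where 578 would be expected if no gene differed. In each called gene the 3 e20.1 values lay outside the range of the 3 Renilla values. Such separation was seen in 12.1% (higher) and 11.4% (lower) of all tested genes.

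Library depth, estimated from the step that 1 read makes in the FPKM values, was 22.8 to 35.4 M reads with e20.1 and 30.6 to 38.4 M reads with Renilla. A pair of the 6 libraries stood apart together. Renilla replicate 1 scored -34.3 and e20.1 replicate 2 scored -33.6 on the principal component that holds 13.6% of the variance. Their FPKM values summed to 812480 and 899692, against 726542 to 734034 in the other 4. In both, transcripts of 512 to 2047 bases were read higher and long transcripts lower than in the other libraries of their group. Genes whose longest transcript spans 512 to 1023 bases deviated by a median of 0.46 log2 units in e20.1 replicate 2 and 0.26 in Renilla replicate 1, and genes of 8192 bases and over by -0.35 and -0.14. Results are therefore given with and without this pair of libraries. Without the pair, limma called 352 genes higher (3.05%) and 18 lower (0.156%). Leaving the pair out also takes 1 library from each group, so a call can be lost while the difference stays near its value.

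**Figure D1:**
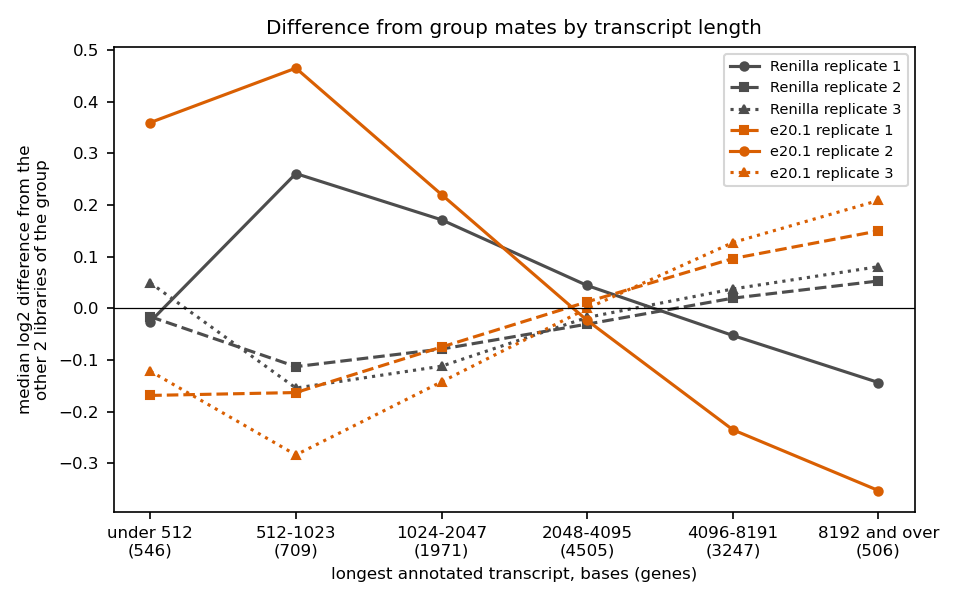
Median difference in log2(FPKM + 1) of each library from the mean of the other 2 libraries of its group (vertical axis, log2 units), by length of the longest annotated transcript (horizontal axis, with the number of genes in each bin). The lines of e20.1 replicate 2 and Renilla replicate 1 fall with length, from 0.46 and 0.26 at 512 to 1023 bases to -0.35 and -0.14 at 8192 bases and over, and the other 4 rise from that bin on.

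The targeted gene, Jmjd1c (ENSMUSG00000037876.17, GRCm38/mm10 chromosome 10, 67096125-67256326, plus strand), had 64.2, 85.4 and 85.4 FPKM with Renilla (replicates 1 to 3, the order used throughout) and 63.4, 42.2 and 73.6 FPKM with e20.1. The groups overlap, since e20.1 replicate 3 exceeds Renilla replicate 1. The lowest Jmjd1c value with e20.1 and the lowest with Renilla are those of the pair of libraries in which long transcripts were read low, and the longest Jmjd1c transcript has 8609 bases. The mean of Jmjd1c was 23.7% lower with e20.1 and did not pass the test (-0.41 log2 units, SE 0.17, adjusted p = 0.196 by limma), and the exact two-sided permutation test gave p = 0.2, where 20 arrangements allow no p under 0.1. Without the pair, Jmjd1c was 19.8% lower (-0.32, limma adjusted p = 0.215). A guide that makes small insertions and deletions need not lower the transcript, so these values do not measure editing. Of the 7 other tested genes within 2 Mb of Jmjd1c, limma called 0. Reep3, whose start overlaps that of Jmjd1c on the opposite strand, had a log2 fold change of 0.49 (adjusted p = 0.116), and Nrbf2, the next gene on the other side, of 0.05.

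Of 4 listed members of the KDM3 family, Jmjd1c among them, 3 passed the expression filter. The other tested members, Kdm3a and Kdm3b, encode H3K9 demethylases. They had log2 fold changes of -0.14 and -0.32 and were not called by limma (adjusted p = 0.815 and 0.29). Of 10 tested H3K9 methyltransferases and HP1 proteins, which write and read this mark, 0 were called higher and 1 lower, at a median log2 fold change of -0.21, where the median over all tested genes was -0.03. The called gene was Suv39h2, a histone H3K9 methyltransferase, at 15.4, 12.8 and 12.9 FPKM with Renilla and 10.3, 9.53 and 9.47 FPKM with e20.1 (log2 fold change -0.45, limma adjusted p = 0.011). Without the pair of libraries that stand apart no member of this list was called and the median was -0.12.

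The gene that rose most among the monocyte genes was Ctss, the lysosomal protease cathepsin S, which trims the invariant chain of MHC class II. Ctss (ENSMUSG00000038642.10, chromosome 3, 95526786-95556403, plus strand) stood at 4.97, 3.57 and 3.58 FPKM with Renilla and at 49.2, 66.0 and 47.4 FPKM with e20.1. Every e20.1 library was far above every Renilla library, with the highest value in e20.1 replicate 2. The mean rose 13.4-fold, from 4.04 ± 0.808 to 54.2 ± 10.2 FPKM (SD, n = 3 each), or by 3.45 log2 units (SE 0.21, adjusted p = 3.7e-07 by limma). The log2 fold change was 3.43 without the pair. In mock cells Ctss stood at 4.02, 3.11 and 2.91 FPKM, near the Renilla level. Its promoter is shown because PU.1, the ETS factor that drives many myeloid genes, is known for the motif GAGGAAGT, and a match on the minus strand, read here as ACTTCCTC and set in capitals, begins 2 bases before the transcription start. The stretch runs from 250 bases before to 50 after the RefSeq start, at chr3:95526536-95526835 on the plus strand of GRCm38.p6.
Ctss: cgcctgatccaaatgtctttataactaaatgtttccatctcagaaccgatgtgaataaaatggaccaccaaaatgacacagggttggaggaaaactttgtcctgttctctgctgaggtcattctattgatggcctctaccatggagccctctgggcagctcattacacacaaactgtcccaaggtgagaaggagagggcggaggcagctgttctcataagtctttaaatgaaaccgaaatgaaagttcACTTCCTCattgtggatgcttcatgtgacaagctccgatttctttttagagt
The motif was searched on both strands, and 3.28% of all 27025 RefSeq promoters of the same length hold it. A match describes the letters only.

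Among 19 tested monocyte and macrophage genes, 12 were called higher and 0 lower, against 4.61% and 1.06% of all tested genes, and the median log2 fold change was 0.89. Csf1r, which encodes the M-CSF receptor of macrophages, stood at 2.04, 2.36 and 2.33 FPKM with Renilla and at 11.4, 12.02 and 12.96 FPKM with e20.1. Irf8, a transcription factor of monocyte fate, stood at 10.6, 11.1 and 11.4 FPKM with Renilla and at 37.3, 37.3 and 35.03 FPKM with e20.1. Both genes were tight within each group, and their groups were far apart. Tlr2, a receptor for bacterial lipopeptides, rose from 1.70, 1.95 and 1.99 FPKM to 7.79, 10.2 and 9.37 FPKM, and Cybb, the membrane subunit of the phagocyte NADPH oxidase, from 1.51, 1.77 and 2.19 FPKM to 7.10, 6.34 and 10.8 FPKM. The log2 fold changes were 2.01 for Csf1r, 1.64 for Irf8, 1.81 for Tlr2 and 1.66 for Cybb. Lyz2 (lysozyme, 1.29), Cd68 (a lysosomal membrane protein, 1.41), Adgre1 (the F4/80 antigen, 0.89) and Fcgr3 (an activating Fc receptor, 0.78) were also called higher. Of the 7 members not called, Ly6c2, an antigen of inflammatory monocytes, stood at 763, 709.5 and 831 FPKM with Renilla and at 524, 855 and 695 FPKM with e20.1, and its groups overlap. Without the pair, 9 of the 19 were called higher and the median was 0.98, where that of all tested genes was -0.01. Lgals3 (galectin-3), Mpeg1 (perforin-2) and Sirpa (the CD47 receptor) lost their calls (limma adjusted p = 0.12, 0.17 and 0.081).

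Lysosomal proteases and related lysosomal genes, the list to which Ctss also belongs, had 9 of 19 members called higher and 0 lower (median log2 fold change 0.48). Ctsc, which encodes the cathepsin that activates granule serine proteases, stood at 70.5, 77.5 and 71.2 FPKM with Renilla and at 155, 121 and 153 FPKM with e20.1. Cathepsins D, E and H (Ctsd, Ctse and Ctsh) rose by 0.59, 0.98 and 0.96 log2 units. These differences were smaller than that of Ctss, and in each the groups were apart. Without the pair, 8 members were called higher, among them Ctso and Ctsz, while Ctsb, Ctsh and Lgmn were not.

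The paired immunoglobulin-like receptors are families of similar surface proteins in which inhibitory members carry ITIM motifs and activating members signal through adaptors such as DAP12 or the Fc receptor gamma chain. Of 15 tested members 11 were called higher and 0 lower, at a median log2 fold change of 1.62. Lilra6 (ENSMUSG00000030427.17, chromosome 7, 3908280-3915503, minus strand) stood at 2.65, 3.07 and 4.94 FPKM with Renilla and at 29.9, 31.0 and 41.1 FPKM with e20.1. Pirb, an inhibitory receptor for MHC class I, stood at 3.32, 4.89 and 7.31 FPKM with Renilla and at 24.6, 37.3 and 40.4 FPKM with e20.1. Pira2, an activating relative, stood at 1.66, 2.60 and 4.21 FPKM with Renilla and at 19.2, 24.0 and 26.9 FPKM with e20.1. In all 3 genes Renilla replicate 1 was the lowest library and e20.1 replicate 1 the lowest of its group, and the groups were apart. Lilrb4a, an inhibitory receptor on chromosome 10, rose from 13.2, 28.0 and 27.3 FPKM to 107, 165 and 167 FPKM, and its neighbour Lilr4b from 4.64, 12.43 and 13.9 FPKM to 48.3, 89.4 and 88.7 FPKM. The log2 fold changes were 2.96 (Lilra6), 2.72 (Pira2), 2.53 (Pirb), 2.67 (Lilrb4a) and 2.82 (Lilr4b), and without the pair they were 2.88, 2.45, 2.23, 2.23 and 2.24. The other called members of the list were Cd300lf, Cd300a and Cd300lb of the CD300 family, Pilra, Pilrb1 and Trem3. Cd300lf and Cd300lb rose by 1.68 and 1.62 log2 units and Pilra, an inhibitory receptor for sialylated ligands, by 1.63. Without the pair 10 of the 15 were called higher, with Pilrb1 no longer among them (limma adjusted p = 0.12).

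Lilra6, Pira2 and Pirb lie on the minus strand of one stretch of chromosome 7 and are close copies of each other, so that reads can be assigned to the wrong copy and their values cannot be taken as fully separate. Their RefSeq promoters are shown to let this closeness be seen, at chr7:3915452-3915751 (Lilra6), chr7:3845002-3845301 (Pira2) and chr7:3720333-3720632 (Pirb) of GRCm38.p6, each on the minus strand. Capitals mark GAGGAAGT, the PU.1 motif given above, which each holds once.
Lilra6: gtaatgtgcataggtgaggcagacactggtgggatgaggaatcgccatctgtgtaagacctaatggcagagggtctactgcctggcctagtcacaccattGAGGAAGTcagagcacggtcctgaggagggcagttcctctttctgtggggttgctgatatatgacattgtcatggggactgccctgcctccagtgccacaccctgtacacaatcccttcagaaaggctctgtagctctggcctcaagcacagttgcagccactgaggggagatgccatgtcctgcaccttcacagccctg
Pira2: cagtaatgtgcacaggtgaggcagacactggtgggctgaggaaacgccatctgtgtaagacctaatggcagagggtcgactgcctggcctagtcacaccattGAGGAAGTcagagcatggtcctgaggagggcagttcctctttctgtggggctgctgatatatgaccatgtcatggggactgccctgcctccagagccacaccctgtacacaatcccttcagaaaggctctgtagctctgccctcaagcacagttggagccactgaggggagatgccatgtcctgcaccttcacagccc
Pirb: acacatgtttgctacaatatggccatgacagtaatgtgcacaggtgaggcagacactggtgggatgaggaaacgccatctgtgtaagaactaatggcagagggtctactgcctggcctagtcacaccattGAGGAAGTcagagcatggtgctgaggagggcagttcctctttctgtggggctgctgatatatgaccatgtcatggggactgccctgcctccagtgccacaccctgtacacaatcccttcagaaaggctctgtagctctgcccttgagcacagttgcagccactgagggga
Aligned, the promoters of Lilra6 and Pira2 are identical at 287 of 298 bases (96.3%), those of Lilra6 and Pirb at 259 of 270 (95.9%) and those of Pira2 and Pirb at 264 of 272 (97.1%). The match lies in the same aligned stretch in all of them, so it counts as 1 sequence feature and not as 3.

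**Figure D2:**
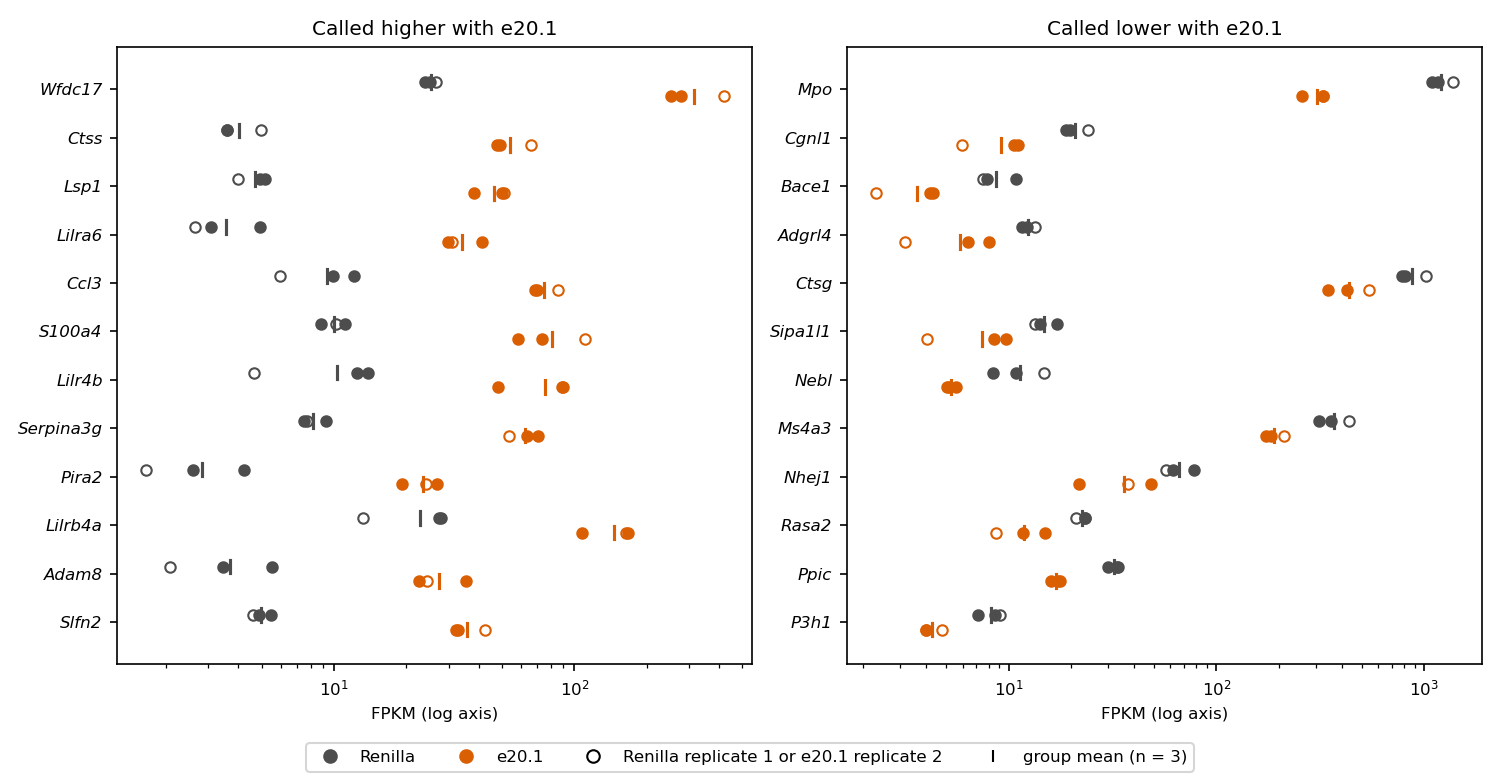
FPKM (log axis) of the 12 genes called higher and the 12 called lower with the largest fold change under the naming rule, with 1 point per library, Renilla in grey and e20.1 in orange, open points for Renilla replicate 1 and e20.1 replicate 2, and a bar at each group mean (n = 3). The naming rule admits only genes whose e20.1 points lie outside the range of the Renilla points. The gap is widest for Ctss (4.04 against 54.2 FPKM on average) and Wfdc17 (25.3 against 315 FPKM).

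Wfdc17 (ENSMUSG00000069792.5, chromosome 11, 83703991-83706268, plus strand), a secreted regulator of macrophage activation, stood at 26.7, 24.0 and 25.2 FPKM with Renilla and at 251, 417 and 278 FPKM with e20.1. Lsp1, an actin-binding protein of leukocytes, stood at 3.98, 5.19 and 4.94 FPKM with Renilla and at 38.4, 50.8 and 49.9 FPKM with e20.1. S100a4, a calcium-binding protein of motile cells, stood at 10.2, 8.79 and 11.1 FPKM with Renilla and at 58.4, 110 and 73.2 FPKM with e20.1. The groups were apart in each, and e20.1 replicate 2 was the highest e20.1 library. The log2 fold changes were 3.56 (SE 0.39) for Wfdc17, 3.05 (SE 0.21) for Lsp1 and 2.85 (SE 0.72) for S100a4. Of the 12 genes named among those that rose, S100a4 alone lost its call without the pair (2.61, limma adjusted p = 0.199). It lost the call in 8 of 18 alternative analyses, while the other 11 were called in all 18. With only the compared groups in the model S100a4 was called (limma adjusted p = 0.0014). Serpina3g, a serine protease inhibitor, rose from 7.73, 9.30 and 7.53 FPKM to 70.7, 53.6 and 63.4 FPKM (2.79), with e20.1 replicate 2 the lowest of its group. Adam8, a membrane metalloprotease, rose by 2.64 log2 units and Slfn2, a Schlafen protein linked to immune cell quiescence, by 2.61.

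Among chemokines and their receptors, 3 of 10 tested members were called higher and 0 lower (median log2 fold change 0.63). Ccl3, the chemokine MIP-1 alpha, stood at 5.98, 9.91 and 12.1 FPKM with Renilla and at 68.6, 85.8 and 69.9 FPKM with e20.1. Ccl6, a CC chemokine of myeloid cells, rose from 19.4, 16.2 and 17.95 FPKM to 65.5, 93.5 and 95.5 FPKM. The third was Ccl4 (MIP-1 beta), at 1.74, 2.40 and 3.42 FPKM with Renilla and 6.84, 17.9 and 9.54 FPKM with e20.1. The Renilla values of Ccl4 and Ccl3 were lowest in replicate 1, and the call of Ccl4 was lost without the pair (limma adjusted p = 0.27). Ccl3 and Ccl6 stayed called, at log2 fold changes of 2.55 and 2.1.

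Interleukin-3 and STAT5 genes had 9 of 23 tested members called higher and 0 lower (median log2 fold change 0.46), and the same 9 were called without the pair (median 0.42). Cish encodes a SOCS-family feedback inhibitor that STAT5 induces. Cish (ENSMUSG00000032578.7, chromosome 9, 107296026-107302784, plus strand) stood at 17.6, 27.0 and 20.9 FPKM with Renilla and at 74.4, 54.2 and 84.3 FPKM with e20.1, with no overlap. The log2 fold change was 1.65 (SE 0.22, adjusted p = 2.5e-04 by limma). The RefSeq promoter of Cish, at chr9:107296409-107296708 on the plus strand of GRCm38.p6, is shown for its paired STAT motifs TTCNNNGAA, set in capitals.
Cish: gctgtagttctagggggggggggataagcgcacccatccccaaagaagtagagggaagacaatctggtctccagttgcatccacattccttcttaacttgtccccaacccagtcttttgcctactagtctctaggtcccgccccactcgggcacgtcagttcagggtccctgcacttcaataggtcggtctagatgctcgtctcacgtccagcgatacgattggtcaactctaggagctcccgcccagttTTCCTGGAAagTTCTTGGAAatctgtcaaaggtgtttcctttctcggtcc
The 2 matches stand 2 bases apart and begin at bases 1 and 12 counted from the RefSeq start. Over both strands, 8.47% of all 27025 promoters hold at least 1 match, and binding was not measured here.

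The receptor genes of this list did not move alike. Csf2rb, the beta chain shared by the interleukin-3, interleukin-5 and GM-CSF receptors, stood at 41.1, 50.4 and 47.9 FPKM with Renilla and at 105, 95.4 and 124.1 FPKM with e20.1 (log2 fold change 1.20, limma adjusted p = 4.7e-04). Csf2rb2, its mouse-specific copy for interleukin-3, rose from 3.80, 5.45 and 5.54 FPKM to 15.7, 14.5 and 19.6 FPKM, and reads of this close copy may be shared with Csf2rb. The alpha chains Il3ra and Csf2ra were not called, with log2 fold changes of 0.22 and 0.02. Il4ra, the interleukin-4 receptor alpha chain, rose from 12.6, 9.70 and 9.04 FPKM to 26.8, 22.2 and 28.2 FPKM, and Osm, the cytokine oncostatin M, from 6.86, 5.92 and 6.76 FPKM to 17.3, 24.5 and 17.8 FPKM. In Csf2rb, Csf2rb2, Il4ra and Osm the groups were apart in every library. Socs2, a further feedback inhibitor, Ccnd3 (cyclin D3), Mcl1 (a survival factor) and Cdkn1a (the inhibitor p21) rose by 0.51, 0.49, 0.46 and 0.91 log2 units. Pim1, a STAT5-induced kinase, and Bcl2l1 (BCL-XL) were not called, at 0.11 and 0.07, nor was Stat5a itself, at -0.16.

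Immediate-early and RAS-MAPK response genes had 8 of 22 members called higher and 0 lower (median log2 fold change 0.59), and 7 were called higher without the pair (median 0.49). Egr1, a zinc finger transcription factor induced by MAP kinase signalling, stood at 0.664, 0.335 and 0.70 FPKM with Renilla and at 8.53, 9.29 and 6.01 FPKM with e20.1. Fos, a subunit of AP-1, rose from 1.71, 1.61 and 2.73 FPKM to 10.96, 9.72 and 11.1 FPKM, and Nr4a1, an orphan nuclear receptor, from 0.649, 1.27 and 1.12 FPKM to 4.06, 5.07 and 3.95 FPKM. These genes were near 1 FPKM in the control, where log2(FPKM + 1) understates a fold change: Egr1 rose 14.02-fold in mean FPKM and by 2.50 on that scale. The phosphatases Dusp1 and Dusp5, which switch off MAP kinases, rose by 1.23 and 1.10 log2 units, and Ier3, an early response gene, by 1.39. Without the pair Dusp1 was not called (limma adjusted p = 0.14).

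Sensors and adaptors of innate immunity were called in the same direction as the monocyte genes. Of 14 tested Toll-like and Fc receptors and their adaptors, 8 were called higher and 0 lower (median log2 fold change 0.74), and 4 of them without the pair. Tyrobp, the adaptor DAP12, rose from 372, 426 and 409 FPKM to 660, 918 and 654 FPKM, which did not overlap. Of 13 integrins 5 were called higher: Itgb2, the beta chain of leukocyte integrins, rose by 0.58 log2 units, Itgb5 by 0.87 and Itgb3 by 1.73, while Itgb7 (1.75) and Itgax (1.16) lost their calls without the pair. Itgam, the integrin CD11b, stood at 40.8, 54.0 and 58.0 FPKM with Renilla and at 84.3, 67.0 and 107.5 FPKM with e20.1, with no overlap but with no call (0.74, limma adjusted p = 0.11). Of 15 interferon-stimulated genes 6 were called higher (median 0.64). With no filter on low values the median of this list was 0.37, and with a minimum of 5 FPKM in 3 libraries it was 0.40 with 3 called. Zbp1, a sensor of nucleic acids, was at 0.206, 0.356 and 0.153 FPKM with Renilla and at 3.17, 2.84 and 2.57 FPKM with e20.1, and Ifi27l2a rose by 1.92 log2 units. In the NF-kB and inflammatory list, 5 of 16 passed the test upward (median 0.42), led by Zfp36, an mRNA decay factor, from 9.93, 13.9 and 13.8 FPKM to 26.9, 34.3 and 29.3 FPKM. Without the pair, 4 interferon-stimulated and 2 NF-kB genes were called. Of 13 genes of MHC class I presentation 4 were called higher (median 0.33), H2-T23 (a class Ib molecule, 0.97), B2m (beta-2 microglobulin, 0.66), H2-K1 and H2-D1, and without the pair 3, H2-K1, H2-T23 and Tapbp. With only the compared groups in the model, 0 of the 13 were called.

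**Figure D3:**
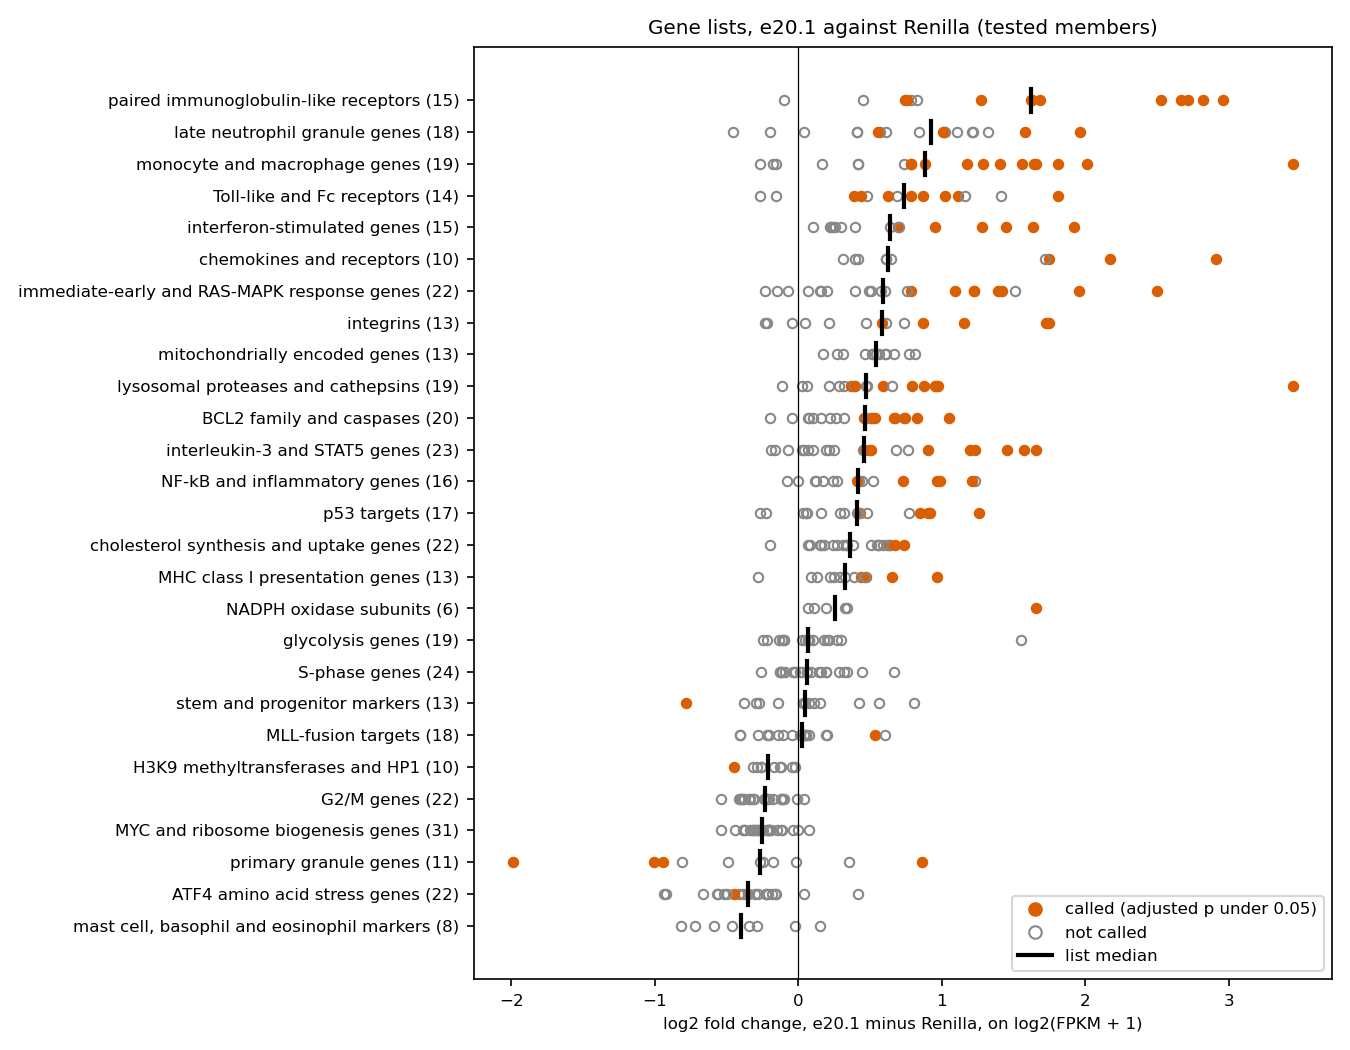
Log2 fold change of e20.1 against Renilla on log2(FPKM + 1) (horizontal axis) for each tested member of 27 gene lists (number tested in parentheses), with filled orange points for members called by limma at an adjusted p under 0.05, open points for the others and a bar at the list median. The paired immunoglobulin-like receptors have the highest median at 1.62 with 11 of 15 called, and the MYC and ribosome biogenesis genes show no called member at a median of -0.25.

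Primary granule genes, which promyelocytes express, were the list with most genes called lower: of 11 tested members 3 were called lower and 1 higher (median log2 fold change -0.27). Mpo, myeloperoxidase (ENSMUSG00000009350.13, chromosome 11, 87793581-87804413, plus strand), stood at 1376, 1158 and 1084 FPKM with Renilla and at 326, 327 and 258 FPKM with e20.1. Ctsg, the granule protease cathepsin G, stood at 1019, 811 and 778 FPKM with Renilla and at 426, 539 and 344 FPKM with e20.1. Ms4a3, a tetraspan protein that marks granulocyte-monocyte progenitors, stood at 432, 355 and 310 FPKM with Renilla and at 182, 211.4 and 173 FPKM with e20.1. In all 3 the highest Renilla value was that of replicate 1, and the groups were apart. The log2 fold changes were -1.99 (SE 0.44) for Mpo, -1.01 (SE 0.23) for Ctsg and -0.94 (SE 0.24) for Ms4a3. Without the pair the differences were close to these, at -1.95, -1.05 and -0.90, but limma called none (adjusted p = 0.109, 0.0568 and 0.167). Prtn3 and Elane, the other serine proteases of these granules, were not called: Prtn3 stood at 1238, 1179 and 1241 FPKM with Renilla and at 756, 1147 and 750.0 FPKM with e20.1, with e20.1 replicate 2 near the Renilla values. The member called higher was Cst7 (cystatin F, an inhibitor of cysteine cathepsins), from 110, 102 and 97.7 FPKM to 181, 210 and 174 FPKM. Its log2 fold change of 0.86 kept its call without the pair.

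Genes of later neutrophil granules had 4 of 18 members called higher and 0 lower (median log2 fold change 0.92), and without the pair 3 (median 0.43). Mmp8, the neutrophil collagenase, stood at 0.191, 0.369 and 0.273 FPKM with Renilla and at 3.93, 3.64 and 4.37 FPKM with e20.1. Hp (haptoglobin) stood at 385, 300.0 and 285 FPKM with Renilla and at 569, 839 and 563 FPKM with e20.1. Both were called with and without the pair, Hp at log2 fold changes of 1.01 and 0.95. With each library corrected for transcript length in place of leaving the pair out, 4 of the 18 were called and the median was 0.89. With no filter on low values the median of this list was 0.59 and 3 were called. With a minimum of 5 FPKM in 3 libraries it was 0.92 and 2 were called. Mmp8, like Egr1 and Zbp1, was under 1 FPKM in each Renilla library and passed the filter through other libraries where it stood higher.

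The other genes named among those that fell most were Cgnl1 (a junction protein, -1.13), Bace1 (an aspartic protease, -1.10), Adgrl4 (an adhesion receptor, -1.03), Sipa1l1 (a RAP GTPase activator, -0.98), Nebl (an actin-binding protein, -0.95), Nhej1 (a DNA end-joining factor, -0.91), Rasa2 (a RAS GTPase activator, -0.91), Ppic and P3h1 (a collagen prolyl hydroxylase, -0.81). Ppic, a peptidyl-prolyl isomerase, stood at 33.7, 33.1 and 29.95 FPKM with Renilla and at 17.7, 17.2 and 16.0 FPKM with e20.1. It was tight in both groups and was called with and without the pair (-0.89 and -0.87, limma adjusted p = 0.0014 and 0.023), and in all 18 alternative analyses. Of the 12 genes named among those that fell, it alone was called without the pair. Cgnl1 stood at 24.1, 18.9 and 19.6 FPKM with Renilla and at 10.6, 5.96 and 11.1 FPKM with e20.1, so that the highest Renilla and the lowest e20.1 value are those of the pair. Without them its log2 fold change was -0.77 (limma adjusted p = 0.237).

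Without the pair, 312 of the 533 genes called higher and 13 of those called lower were called again. The median log2 fold change of the 533 was 0.86 with all libraries and 0.81 without the pair, and that of the lower genes was -0.49 and -0.41. The longest transcript had a median of 3860 bases in the lower genes, 3220 in the higher genes and 3137.5 in all tested genes, and among the genes called without the pair it was 3453.5 in the lower and 3537 in the higher ones. The 13 lower genes called in both fits, singled out here after their values were seen, are Actn1, Dld, Fbxl19, Gigyf2, Gria3, Hdlbp, Klhl22, Pabpc4, Ppic, Rreb1, Ttc3, Usp11 and Vat1. Vat1, a membrane protein of vesicles, fell from 92.1 ± 2.06 to 61.0 ± 4.31 FPKM (SD, n = 3 each; -0.59, limma adjusted p = 1.3e-04), and Usp11, a deubiquitinating enzyme, from 12.8 ± 2.28 to 7.58 ± 1.20 FPKM (-0.68, limma adjusted p = 0.0027). Vat1 changed by -0.55 and Usp11 by -0.72 without the pair.

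**Figure D4:**
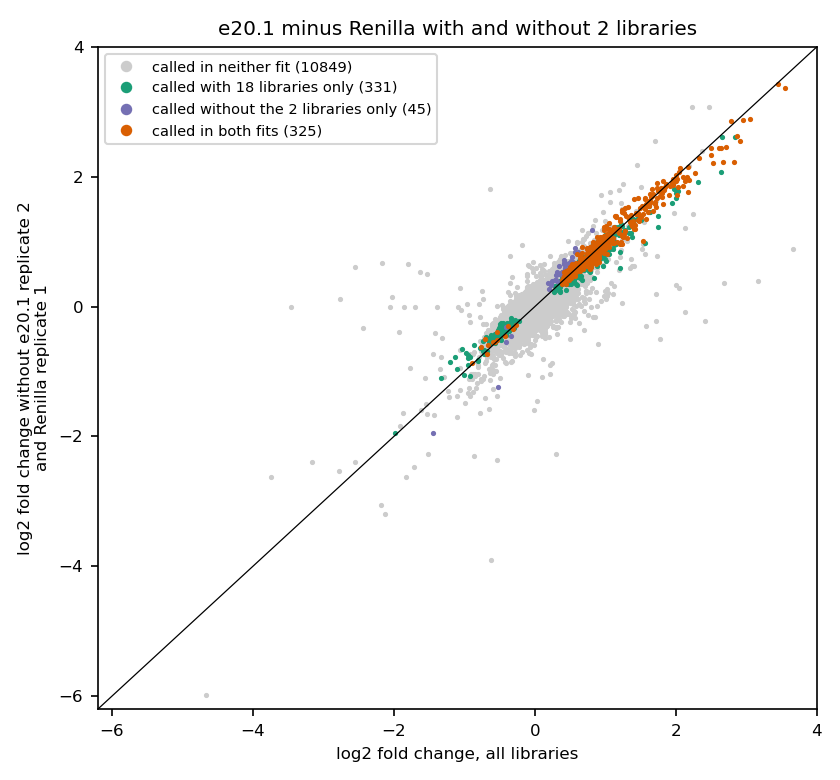
Log2 fold change of each of the 11550 tested genes with all libraries (horizontal axis) and without e20.1 replicate 2 and Renilla replicate 1 (vertical axis), with the line of equality, coloured by the fit that called the gene. The 325 genes called in both fits lie mostly at positive values, 312 higher and 13 lower, and 331 were called only with all libraries.

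The growth and stress lists held few called genes. Of 31 MYC and ribosome biogenesis genes 0 were called by limma, with 10 lower at an unadjusted p under 0.05 and a median log2 fold change of -0.25 (-0.19 without the pair). Of all tested genes 7.67% were lower at that unadjusted level and 10.3% higher. Wdr12, a ribosome assembly factor, stood at 98.8, 81.6 and 94.6 FPKM with Renilla and at 75.8, 56.5 and 70.1 FPKM with e20.1, and Mybbp1a, a nucleolar protein, at 148, 152 and 147 FPKM and 124.2, 122.98 and 120.4 FPKM. Neither group pair overlapped, and the limma adjusted p were 0.0566 and 0.0575. Of 22 G2/M genes 0 were called, with 7 lower at an unadjusted p under 0.05 (median -0.23, and -0.13 without the pair), and of 24 S-phase genes 0 were called and 0 reached that level (median 0.06). Of 22 ATF4 amino acid stress genes 2 were called lower (median -0.35): Psat1, of serine synthesis, stood at 416, 324 and 315 FPKM with Renilla and at 262, 249 and 256 FPKM with e20.1, and Shmt2, of mitochondrial folate metabolism, fell by 0.35 log2 units. Without the pair neither was called. Of 19 glycolysis genes 0 were called (median 0.07), with 4 higher at an unadjusted p under 0.05, and of 22 cholesterol synthesis and uptake genes 3 were called higher (median 0.36) and 0 without the pair.

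Genes of cell death and cell-cycle arrest held calls in the higher direction only. Of 20 BCL2-family and caspase genes 8 were called higher and 0 lower (median log2 fold change 0.47), 5 without the pair, and 1 with a model of the compared groups alone. Bcl2 stood at 5.40, 4.76 and 5.22 FPKM with Renilla and at 8.995, 7.06 and 7.59 FPKM with e20.1. The haematopoietic BCL2 relatives Bcl2a1a and Bcl2a1d, close copies whose reads are hard to part, rose by 0.83 and 1.05 log2 units. The list mixes survival and death factors, and both kinds were among the called: the survival factors Bcl2, Mcl1 and Bcl2a1, the BH3-only death factor Bmf, and Casp1, Casp4 and Casp6. Of 17 p53 targets 5 were called higher (median 0.41), with Cdkn1a from 71.5, 75.8 and 64.3 FPKM to 120.1, 157 and 124.25 FPKM and Trp53inp1 from 1.59, 3.17 and 2.48 FPKM to 6.45, 6.62 and 8.10 FPKM. Cdkn1a is counted under STAT5 and p53 alike, and Ctss, Tlr2, Fcgr3, Cybb, Mcl1, Bcl2, Itgb3 and Itgax also stand in more than 1 list.

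Of 18 MLL-fusion targets 1 was called higher and 0 lower, at a median log2 fold change of 0.02. Without the pair the median was -0.16, where that of all tested genes was -0.01. Hoxa9 stood at 64.2, 99.2 and 108 FPKM with Renilla and at 89.0, 92.1 and 94.1 FPKM with e20.1, and Meis1 at 28.8, 38.7 and 38.3 FPKM and 34.8, 35.7 and 37.4 FPKM. Both overlap, and their lowest value is that of Renilla replicate 1. Myc stood at 104, 106 and 115 FPKM with Renilla and at 100.1, 112 and 91.0 FPKM with e20.1, which overlap. The called gene was Bcl2, given above, and without the pair Runx1, a transcription factor of blood progenitors, was called as well (0.60, limma adjusted p = 0.0475). Of 13 stem and progenitor markers 0 were called higher and 1 lower (median 0.05), the mucin Muc13, from 14.3, 13.02 and 17.4 FPKM to 9.55, 6.34 and 9.02 FPKM. Without the pair Muc13 was not called (limma adjusted p = 0.157), the median was 0.01, and Cd93, a surface protein of progenitors and monocytes, was called higher (0.84, limma adjusted p = 0.0109). Cd34, a sialomucin of progenitors, stood at 120, 142 and 142 FPKM with Renilla and at 234, 228 and 246 FPKM with e20.1. Its groups were apart, but with 1 spread shared by the 6 groups Cd34 was not called (log2 fold change 0.81, SE 0.31, limma adjusted p = 0.175). Fitted to the compared groups alone, limma passed 1 of the 13 genes of this list upward and 0 downward, so the call of Muc13 was lost there too.

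Markers of other cell types were checked beside these lists. Of 9 erythroid markers with values (11 were listed), 2 passed the expression filter and 0 were called, and Alas2 was at 0 in all 6 libraries. The summed level of the 9 was 13.996 to 16.6 FPKM with Renilla and 7.71 to 14.4 FPKM with e20.1. Of 15 lymphoid markers 3 passed and 0 were called (16.5 to 23.9 FPKM and 12.6 to 13.8 FPKM), and the B cell factor Pax5 was at 0 in 5 of the 6 libraries and at 0.0041 FPKM in e20.1 replicate 3. Of 10 megakaryocyte markers 2 passed and Itgb3 was called higher (17.1 to 19.5 FPKM and 35.6 to 38.4 FPKM). Of 14 dendritic cell markers 4 passed and Id2 and Itgax were called higher (19.7 to 24.3 FPKM and 39.1 to 44.8 FPKM). Xcr1, Clec9a and Ccr7 were under 0.3 FPKM in each of the 6 libraries. The median log2 fold change of the 4 was 1.29. With no filter on low values the median of the dendritic list was 0.11 with 1 called. With a minimum of 5 FPKM in 3 libraries 0 dendritic markers were called. Of 11 mast cell, basophil and eosinophil markers with values (16 were listed), 8 passed and 0 were called. Their median log2 fold change was -0.40 (114 to 141 FPKM and 88.9 to 93.5 FPKM). Of 14 stromal and endothelial markers 4 passed and Pecam1, also an adhesion molecule of leukocytes, was called higher (558 to 763 FPKM and 711 to 1150 FPKM). The part of these cells in the results was not tested. The summed level of the 13 mitochondrially encoded genes, a sign of RNA makeup, was 21255 FPKM in Renilla replicate 1, 39745 and 40773 FPKM in the other Renilla libraries and 40728 to 48146 FPKM with e20.1, and its part in the results was not tested.

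Set against the mean of the other 3 Jmjd1c guides (9 libraries, each guide weighted equally), e20.1 differed in 0 of 11550 genes by limma (0% called in either direction, smallest adjusted p = 0.93), with 262 genes at an unadjusted p under 0.05. The contrast gives the Renilla libraries no weight, but they enter the spread shared by the 6 groups, and so its p-values and intervals. Of the 9 libraries, e12.3 replicate 3 and e21.1 replicate 3 stood apart. They scored -41.1 and -49.9 on the principal component that holds 21.9% of the variance. With e12.3 replicate 3 and e21.1 replicate 3 left out, limma again called 0 genes in either direction. The genes called against Renilla had a median absolute log2 difference of 0.76 from Renilla, a value raised by their selection on that difference. From the other guides their median absolute log2 difference was 0.09, so the medians are not like for like. The 95% confidence interval of the difference from the other guides reached a median of 0.26 to either side. Ctss was 54.2 ± 10.2 FPKM with e20.1 (n = 3) and 50.3 ± 15.4 FPKM with the other guides (n = 9), a log2 difference of 0.15 (95% confidence interval -0.21 to 0.51). For Csf2rb the difference was 0.00 (-0.31 to 0.30), for Cish -0.21 (-0.60 to 0.17), for Egr1 -0.03 (-0.46 to 0.39) and for Mpo 0.14 (-0.63 to 0.91). The wide interval of Mpo goes with 2 libraries of other guides that stood high, as the plot by group shows. For Jmjd1c itself the difference was -0.16 (-0.45 to 0.13). Of the named genes, Nhej1 lay lowest against the other guides, with 35.8 ± 13.2 FPKM against 49.2 ± 7.89 FPKM (-0.50, -0.91 to -0.09), which did not pass adjustment over all genes.

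**Figure D5:**
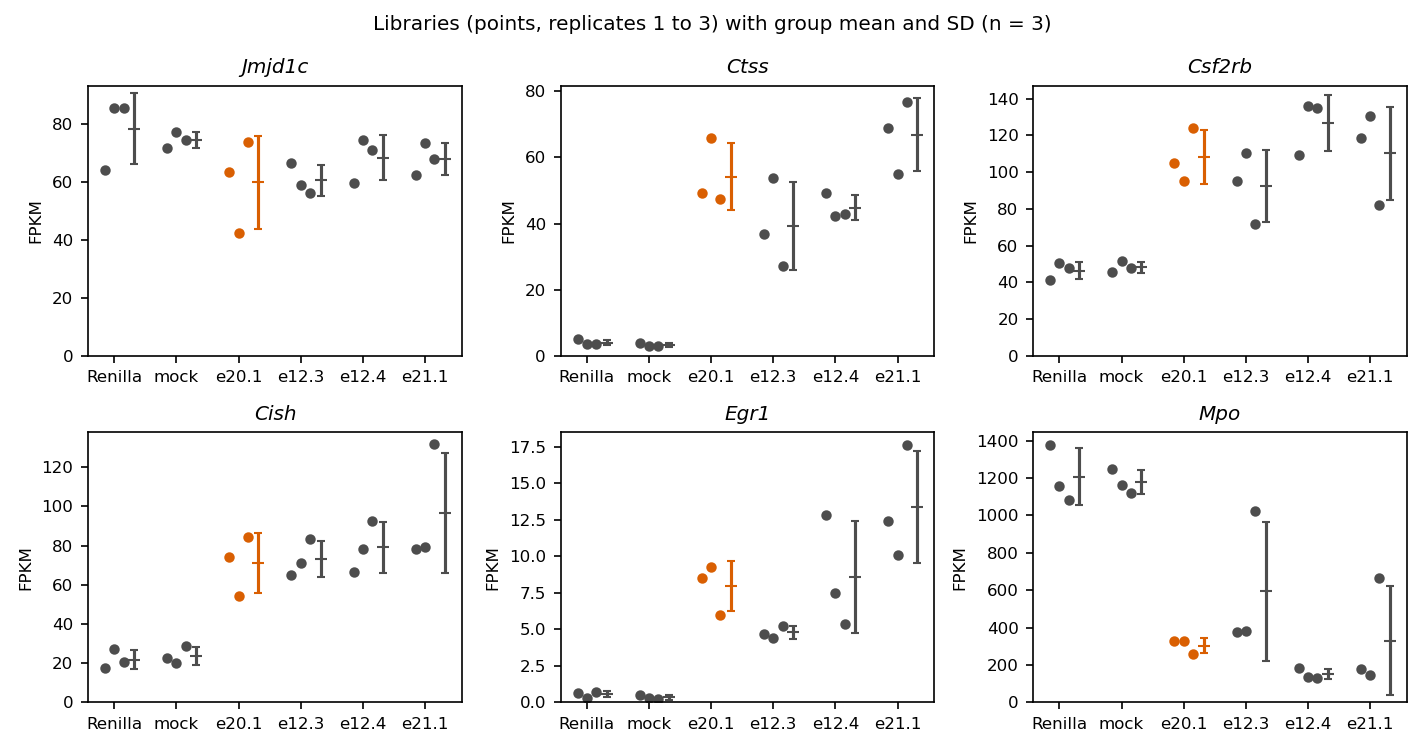
FPKM of Jmjd1c, Ctss, Csf2rb, Cish, Egr1 and Mpo in the 6 groups, with 1 point per library, the group mean and its SD (n = 3), and e20.1 in orange. For Ctss, Csf2rb, Cish and Egr1 every e20.1 library lies above every Renilla and mock library, for Mpo every one lies below them (258 to 327 against 1084 to 1376 FPKM in Renilla), and for Jmjd1c the groups overlap.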

How the data were processed

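Poly(A) RNA of 18 libraries (6 groups of 3) was measured, and the 6 libraries of e20.1 and Renilla are the subject here. The deposited values are FPKM made by the authors. Per the submitters' processing notes, bcl2fastq 2.22.0.422, Salmon 0.13.0, DESeq2 1.22.1 and R 3.5.3 were used with mm10, and which step each tool served is not stated there. The 15 per-library tables hold the values of the series table to within 3.3e-06 FPKM, but 25 gene names differ in each, so names come from the series table.

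Values were taken as log2(FPKM + 1). Limma-trend (limma 3.58.1 under R 4.3.3) was fitted to the 11550 of 23899 genes that averaged 1 FPKM or more, with 1 mean per group, no covariate and 1 spread shared by the 6 groups (12 residual degrees of freedom). Called genes have an adjusted p under 0.05 (Benjamini-Hochberg, over 11550 genes). Count tests were not used, since FPKM are not counts. The scripts were tested on simulated data. Depth was estimated from 1473 genes with transcripts of at least 2000 bases, where 99.2 to 100% of low values lay within 0.15 of a whole read. Positions are from GENCODE vM21 (GRCm38), which holds 98.9% of the symbols. Promoters are from RefSeq, which matched 73.2% of tested genes, and no result is drawn here from motifs in sets of genes. Tables and figures were made in Python 3.11.15 with pandas 2.3.3, numpy 2.4.6 and matplotlib 3.10.9.

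Named are the 12 called genes per direction with the largest log2 fold change whose groups do not overlap and whose mean is 5 FPKM or more, without unnamed gene models and pseudogenes, together with Jmjd1c, called members of the 33 gene lists and up to 5 members of each list with the smallest p; other list members named with values (Ly6c2, Itgam, Hoxa9, Meis1, Myc, Il3ra, Csf2ra, Pim1, Bcl2l1, Stat5a and Elane), the markers at or near 0 and the genes near Jmjd1c were picked after their values were seen. The lists come from general knowledge and were chosen, like the genes and libraries, with earlier results of these data known. Alternatives were a pseudocount of 0.1, no filter, a filter of 5 FPKM in 3 libraries, a model of the compared groups alone, replicate number as a block, mock or Renilla with mock as control, upper-quartile scaling, array quality weights, libraries left out and, added after seeing the data, a correction for transcript length.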

Additional observations from a re-analysis of the deposited data

How the results depend on the processing

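Of 432 values for the 24 named genes in 18 alternatives, 372 kept their side of the threshold and 60 lost the call. The count of genes called higher (533) was 352 without the pair of libraries that stand apart, 877 with the third replicates of e12.3 and e21.1 left out, and 1870 with array quality weights. The count called lower was 18, 413 and 1523 in the same analyses, 41 with only the compared groups in the model, and 272 with Renilla and mock together as control. The cause of these moves was not tested. Leaving out 1 library in turn gave 358 to 452 genes higher and 42 to 94 lower: 49 lower without Renilla replicate 1, 42 without Renilla replicate 2, 61 without Renilla replicate 3, 53 without e20.1 replicate 2 and 72 without e20.1 replicate 3. Against mock alone, 509 were higher and 105 lower, with upper-quartile scaling 532 and 111, and with the correction for transcript length 620 and 149. Jmjd1c was called in 1 alternative, array quality weights (-0.40, limma adjusted p = 0.0024), and without 1 library in turn its log2 fold change was -0.58 to -0.18. Against the other 3 guides, limma called 1 gene higher with array quality weights and 1 without e20.1 replicate 3, and 0 to 1 when 1 library was left out. With the replicate number as a block, 697 genes were called higher and 292 lower, but the deviations of same-numbered libraries of e20.1 and Renilla had correlations of -0.02, -0.25 and 0.37 across genes, which are not all over 0.1, so the numbers were not taken to pair the samples. Of 1188 list counts 1039 stayed within 1.5 times of their value. Of 594 list medians 574 moved by less than the median SE of the tested members of their list. Depths of 22.8 to 38.4 M reads were estimated, not given, so no counting intervals are printed.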

Other observations

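Pagr1a, a gene of a histone methyltransferase complex, had the smallest unadjusted p against the other 3 guides among the genes called against Renilla, and was chosen for it after its values were seen. It stood at 12.32 ± 4.19 FPKM with e20.1 and 4.37 ± 2.84 FPKM with Renilla (log2 fold change 1.39, limma adjusted p = 0.040), and its log2 difference from the other guides was 1.53 (limma adjusted p = 0.93, unadjusted p = 1.5e-04). Without e20.1 replicate 2 and Renilla replicate 1 the limma adjusted p of Pagr1a against Renilla was 0.32. Prnp, the prion protein gene, was also picked after its values were seen and went the other way. Its log2 fold change was -0.52 with all libraries (limma adjusted p = 0.50) and -1.23 without the pair (limma adjusted p = 0.034). It is among the 18 genes called lower without the pair, of which 13 were also called lower with all libraries.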
